A study of Mus musculus with 6 samples.

Results

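The brain endothelium and barrier genes described here are 10 genes, Cldn5, Ocln, Slco1c1, Mfsd2a, Abcb1a, Abcg2, Pecam1, Cdh5, Kdr and Flt1. They were chosen by symbol and matched to Ensembl gene IDs through GENCODE M21, and they are 10 of 49315 genes in the count table. All 10 were found and all 10 passed the filter on low counts, which 18079 genes passed. Gene counts came from bulk RNA-seq of the medial ganglionic eminence (MGE), a germinal zone of the ventral forebrain that gives rise to cortical interneurons, dissected from mouse embryos at embryonic day 14. The group labelled WT had the genotype Nkx2.1-Cre; Prdm16+/+; Ai14, and the group labelled KO had Nkx2.1-Cre; Prdm16fl/fl; Ai14. Every library, controls included, thus carried the Cre driver and the Ai14 reporter. Each group held 3 libraries, numbered 1 to 3, and each library was 1 pool of 3 embryos (6 eminences), so the spread between libraries is a spread between pools. The comparison asks which transcripts of the MGE differ when both copies of Prdm16, which encodes a chromatin regulator of the PR domain family, are floxed in mice with this Cre.

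Blood vessels of the brain grow in from outside the neural tube, whereas Nkx2.1 is a gene of ventral neural progenitors. As the vessels mature, their endothelial cells seal the gaps between them with tight junctions, make few transport vesicles and few pores, and gain transporters that carry nutrients in and pump foreign compounds out. Wnt ligands of the neural tissue, among them Wnt7a and Wnt7b, are known to instruct this barrier programme, and VEGF draws the sprouting vessels in. Pecam1, Cdh5, Kdr and Flt1 are made by endothelium in general, and the other 6 genes encode parts of the barrier. In bulk tissue fewer endothelial cells and less RNA per cell cannot be told apart.

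Total counts ran from 33188277 to 55552298 per library. The log2 CPM values (CPM is the read count of a gene per 1000000 reads of its library, with library sizes scaled by TMM) of 2 libraries correlated at 0.9902 to 0.9954 within groups and at 0.9829 to 0.988 between groups. KO 1 stood apart from the other libraries on the second principal component (16.1% of the variance). On the first (55.9%) KO 1 was at 15.9, between the WT libraries (-31.0 to -28.3) and KO 2 and KO 3 (35.4 and 37.2). Prdm16 itself had 49.4 ± 5.55 CPM in WT and 50.2 ± 4.02 CPM in KO (SD, n = 3 each; log2 fold change 0.02, SE 0.09, edgeR adjusted p = 0.884). Its exons were counted together, and the labels do not say which of them Cre removes, so this value does not check the label, and each direction below rests on the labels WT and KO. The 10 MGE marker genes (such as Nkx2-1 and Lhx6) were all counted, with summed levels of 4624 to 4941 CPM in WT and 4053 to 4497 CPM in KO. Of them 4 fell and 1 rose, beside 10.5% and 9.72% of all genes tested. The 20 further genes of endothelium in general, such as Tek and Tie1, were all tested, with summed levels of 197 to 204 CPM in WT and 167 to 195 CPM in KO.

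Per length of exon, the gene for the tight junction protein claudin-5 was the highest of the 10 in every library. Levels between genes are given as RPKM, which is CPM divided by the annotated exon length in kilobases, with exons of all transcripts of a gene merged. In WT the order of the means was Cldn5 (34.1 ± 1.26 RPKM), Mfsd2a (13.3 ± 0.58), Cdh5 (6.31 ± 0.218), Kdr (5.07 ± 0.137), Pecam1 (3.83 ± 0.0811), Slco1c1 (2.41 ± 0.041), Abcg2 (1.63 ± 0.0775), Flt1 (1.45 ± 0.0715), Abcb1a (0.934 ± 0.0262) and Ocln (0.632 ± 0.123), and no neighbours in it overlapped between the 3 libraries. In KO the first 5 places were the same, with Cldn5 at 21.1 ± 1.56 RPKM and Mfsd2a at 11.8 ± 0.865 RPKM. Kdr and Pecam1 overlapped there. Slco1c1 stood sixth in WT and eighth in KO, at 1.17 ± 0.21 RPKM, where it overlapped Flt1 at 1.21 ± 0.223 RPKM. Ocln, at 0.222 ± 0.0814 RPKM, was the lowest in both groups.

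**Figure D1:**
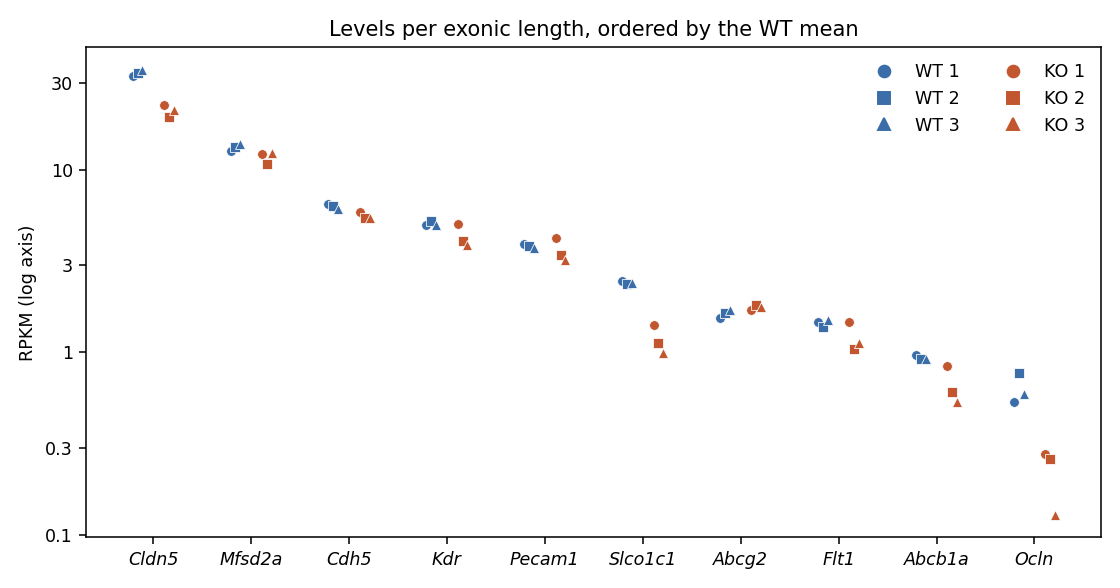
RPKM of the 10 genes (log axis) in the 3 WT libraries (blue) and the 3 KO libraries (orange), with symbols for library numbers 1 to 3 and genes ordered by their WT mean. Cldn5 lies highest in both groups, and Slco1c1 falls from 2.41 RPKM in WT to 1.17 RPKM in KO.

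Of the 10 genes, 3 fell in KO, 0 rose and 7 did not pass the test (edgeR adjusted p under 0.05). The 3 that fell were Cldn5 and Ocln, of the tight junction, and Slco1c1, a transporter of thyroid hormone, and they belong to the 6 barrier genes. Of the 4 genes of endothelium in general 0 passed in edgeR (2 were lower at an unadjusted p under 0.05), and DESeq2 and limma voom also called 0. Over all genes tested, 20.2% were called, 10.5% as lower and 9.72% as higher. For the count of 0 that rose, edgeR gave 0 genes also at an unadjusted p under 0.05, as did DESeq2 and limma voom at an adjusted p under 0.05. In 9 of the 10 genes the log2 fold change was negative, with a median of -0.24 beside 0.00 over all genes tested. In 6 genes all KO libraries lay below all WT libraries (19.6% of all genes), in 1 gene all lay above (20.3% of all genes) and in 3 genes the groups overlapped. Without KO 1, 8 genes were lower and 0 higher, and 20.9% of all genes were then called lower.

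Cldn5 encodes claudin-5, the main sealing protein of endothelial tight junctions. The gene (ENSMUSG00000041378, GRCm38 chromosome 16, 18776847 to 18778262) has 1416 exonic bases. In the order of their numbers, the WT libraries had 46.5, 48.1 and 50.1 CPM and the KO libraries 31.9, 27.5 and 30.2 CPM. All values by library below are in this order. Each KO library was thus below each WT library, and the KO libraries lay close to each other. The fall was 1.62-fold (log2 fold change -0.69, SE 0.07, edgeR adjusted p = 0.000387).

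Ocln encodes occludin, a membrane protein of tight junctions in endothelium and epithelium. The gene (ENSMUSG00000021638, chromosome 13, 100496507 to 100552718) was the least counted of the 10, with 104, 109 and 96 reads in WT 1 to 3 and 52, 40 and 30 reads in KO 1 to 3. This gave 2.25, 3.25 and 2.5 CPM in the WT libraries and 1.17, 1.1 and 0.543 CPM in the KO libraries. The groups did not overlap, though the highest WT library and the lowest KO library lay well off the others. The fall was 2.89-fold, with the widest interval of the 10 genes (log2 fold change -1.53, 95% interval -2.14 to -0.92, edgeR adjusted p = 0.00652).

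Slco1c1 encodes OATP1C1, which carries thyroid hormone across the vessel wall and is also made in choroid plexus. The gene (ENSMUSG00000030235, chromosome 6, 141524368 to 141570177) had 12.7, 12.3 and 12.5 CPM in the WT libraries and 7.28, 5.84 and 5.14 CPM in the KO libraries. The WT libraries were nearly level and every KO library was far below them. The fall was 2.05-fold (log2 fold change -1.04, SE 0.13, edgeR adjusted p = 0.00101). Without KO 1 it was 2.27-fold.

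Bases upstream of the start are shown for 3 genes, since Cldn5 and Slco1c1 fell together while Kdr, a receptor gene of the same cells, did not pass the test. Each run holds the 250 bases before the RefSeq start (GRCm38.p6), written 5′ to 3′ on the strand of the gene, and capitals mark a match on either strand to any of 5 motifs. These were AGATAA for GATA factors, CAGGAAG for ETS factors, CTTTGA for TCF/LEF, ACAAAG for SOX factors and GGGCGG for the GC box. The TCF/LEF motif and the reverse complement of the SOX motif differ in their last letter alone, so no match counts for both.
Cldn5, chr16:18776597-18776846, plus strand: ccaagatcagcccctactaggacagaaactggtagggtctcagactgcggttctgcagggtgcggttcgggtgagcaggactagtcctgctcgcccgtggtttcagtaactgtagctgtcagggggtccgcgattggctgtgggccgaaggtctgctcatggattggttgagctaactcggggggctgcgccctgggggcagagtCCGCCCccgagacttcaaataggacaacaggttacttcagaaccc
Slco1c1, chr6:141524104-141524353, plus strand: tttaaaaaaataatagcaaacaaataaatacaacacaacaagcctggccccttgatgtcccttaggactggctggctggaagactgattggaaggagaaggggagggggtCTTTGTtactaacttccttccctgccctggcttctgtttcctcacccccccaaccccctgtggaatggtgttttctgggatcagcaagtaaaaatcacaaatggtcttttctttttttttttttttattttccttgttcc
Kdr, chr5:75978456-75978705, minus strand: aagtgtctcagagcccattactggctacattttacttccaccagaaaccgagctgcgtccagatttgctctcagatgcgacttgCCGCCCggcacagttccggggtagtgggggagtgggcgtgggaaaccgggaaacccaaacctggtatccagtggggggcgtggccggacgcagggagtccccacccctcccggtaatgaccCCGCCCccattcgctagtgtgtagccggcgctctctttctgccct
The window of Cldn5 held 12 CpG pairs and 1 GC box, and that of Kdr held 16 CpG pairs and 2 GC boxes. The window of Slco1c1 differed from both, with 0 CpG pairs, a GC content of 42.8% (59.6% for Cldn5 and 61.6% for Kdr) and 1 SOX match. RefSeq start windows matched 8 of the 10 genes, all but Pecam1 and Cdh5, with 11 windows in all because Ocln and Abcg2 have several. Of these 11 windows 7 held a GC box, against 32.7% of all 32851 promoters, and 2 held a TCF/LEF match (Mfsd2a and Abcb1a), against 13.8%. The RefSeq window of Abcb1a, chr5:8566841-8567090, lies far upstream of the start of the gene as annotated in GENCODE (8660077). SOX matches were in 2 windows, of Slco1c1 and Abcb1a (16.5% of all promoters), ETS matches in 2, both of Abcg2 (10.8%), and GATA matches in 0 (9.99%).

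The remaining barrier genes are transporters of the vessel wall, and none of the 3 passed the test. Mfsd2a (ENSMUSG00000028655, chromosome 4, 122946850 to 122961188) encodes a carrier of lysophospholipids with docosahexaenoic acid that also keeps vesicle transport across brain endothelium low. It had 28.6, 29.8 and 31.2 CPM in the WT libraries and 27.4, 24.2 and 27.8 CPM in the KO libraries. The groups did not overlap, but the highest KO and the lowest WT library were close (log2 fold change -0.17, SE 0.07, edgeR adjusted p = 0.125). A 95% interval of -0.34 to -0.01 bounds the difference.

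Abcb1a (ENSMUSG00000040584, chromosome 5, 8660077 to 8748575) encodes P-glycoprotein, the efflux pump for many drugs. It had 5.29, 5.05 and 5.03 CPM in the WT libraries and 4.65, 3.35 and 2.93 CPM in the KO libraries, with KO 1 close to the WT libraries. The difference did not pass the test (log2 fold change -0.49, SE 0.17, edgeR adjusted p = 0.0637). The call depended on the setting, as Abcb1a was lower without KO 1 (log2 fold change -0.71, edgeR adjusted p = 0.000812), with DESeq2 (adjusted p = 0.0425) and with no filter on low counts (edgeR adjusted p = 0.021). Of its 50-base stretches 22.5% also occur in transcripts of other genes, with 16.3% in those of its paralogue Abcb1b, so some reads could come from either gene and the value is uncertain. Abcb1b had 0.774 ± 0.159 CPM in WT and 0.637 ± 0.0862 CPM in KO and did not pass (edgeR adjusted p = 0.383). The gene model Gm42686 on the opposite strand covers 10.1% of the exonic bases of Abcb1a.

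Abcg2 (ENSMUSG00000029802, chromosome 6, 58584523 to 58695676) encodes another efflux pump, which red cell precursors and stem cells also make. It had 12.6, 13.3 and 13.9 CPM in the WT libraries and 14, 14.8 and 14.4 CPM in the KO libraries. Its log2 fold change was positive, unlike those of the other 9 genes in the test on all 6 libraries, and it did not pass (0.12, SE 0.08, edgeR adjusted p = 0.312). Its KO libraries lay above all WT libraries by little.

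**Figure D2:**
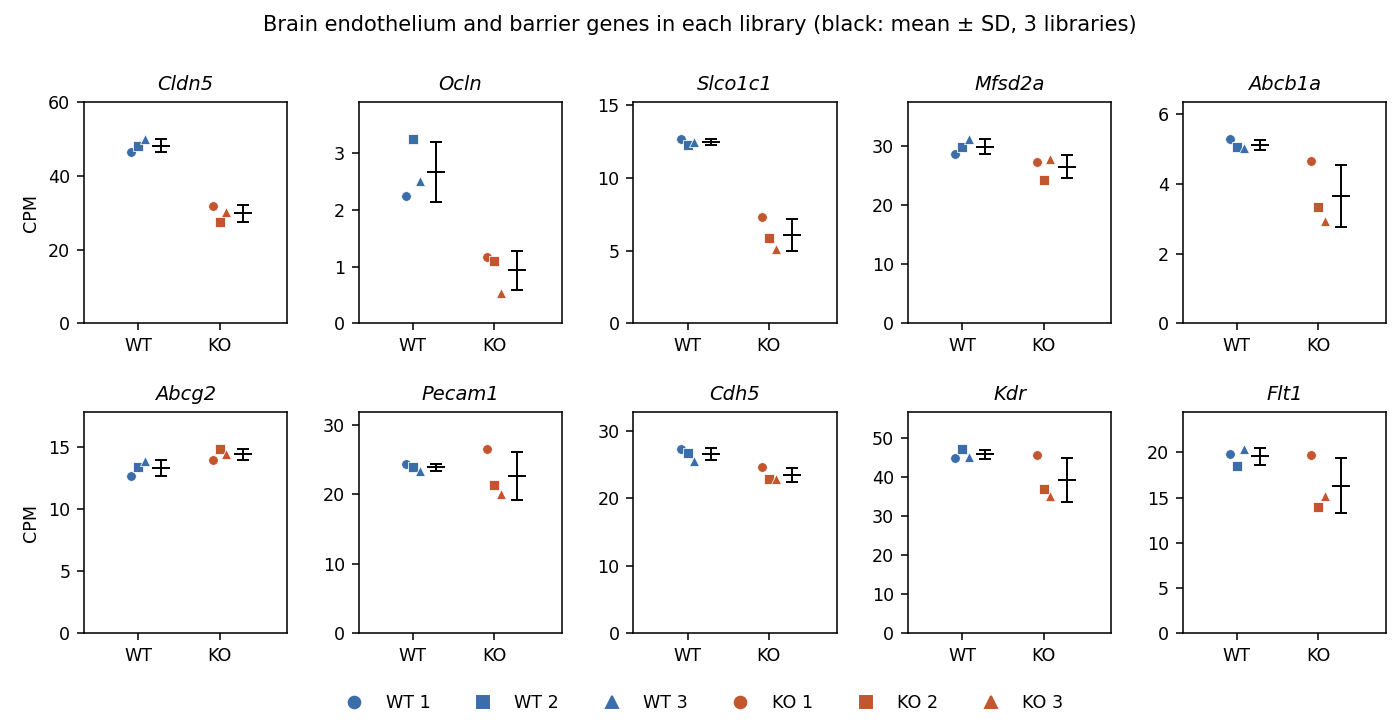
CPM of each of the 10 genes in the 3 WT libraries (blue) and the 3 KO libraries (orange), with black marks for the mean and SD of each group. Cldn5, Ocln and Slco1c1 show KO libraries well below WT, while in Pecam1, Kdr and Flt1 the library KO 1 lies within or above the WT libraries.

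The 4 genes of endothelium in general did not pass the test, and in each of them KO 1 had the highest level of the KO libraries. Pecam1 (ENSMUSG00000020717, chromosome 11, 106654217 to 106750628), an adhesion protein of endothelial contacts, had 24.3, 23.9 and 23.3 CPM in the WT libraries and 26.5, 21.4 and 20 CPM in the KO libraries. Its highest and its lowest library were both KO, so the groups overlapped (log2 fold change -0.08, 95% interval -0.30 to 0.15, edgeR adjusted p = 0.625). Cdh5 (ENSMUSG00000031871, chromosome 8, 104101625 to 104144511) encodes VE-cadherin, the cadherin of endothelial junctions, and had 27.3, 26.7 and 25.5 CPM in the WT libraries and 24.6, 22.8 and 22.9 CPM in the KO libraries. Its groups did not overlap, and it did not pass (log2 fold change -0.18, SE 0.07, edgeR adjusted p = 0.0885).

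Kdr and Flt1 encode VEGF receptors, of which KDR carries most of the growth signal and FLT1 binds VEGF as a trap. Kdr (ENSMUSG00000062960, chromosome 5, 75932827 to 75978458) had 45.0, 47.2 and 45.2 CPM in the WT libraries and 45.6, 37.0 and 35.1 CPM in the KO libraries. Flt1 (ENSMUSG00000029648, chromosome 5, 147561604 to 147726011) had 19.8, 18.5 and 20.4 CPM in the WT libraries and 19.7, 14 and 15.2 CPM in the KO libraries. In both genes KO 1 lay within the WT range while KO 2 and KO 3 lay below every WT library. Neither passed (log2 fold change -0.22 with edgeR adjusted p = 0.117 for Kdr, and -0.26 with edgeR adjusted p = 0.147 for Flt1). Without KO 1 all 4 genes were called lower, with log2 fold changes of -0.20 for Pecam1, -0.21 for Cdh5, -0.34 for Kdr and -0.41 for Flt1 (edgeR adjusted p = 0.0308, 0.0206, 0.000281 and 0.00123). Gene counts do not separate the soluble form of FLT1 from the receptor.

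**Figure D3:**
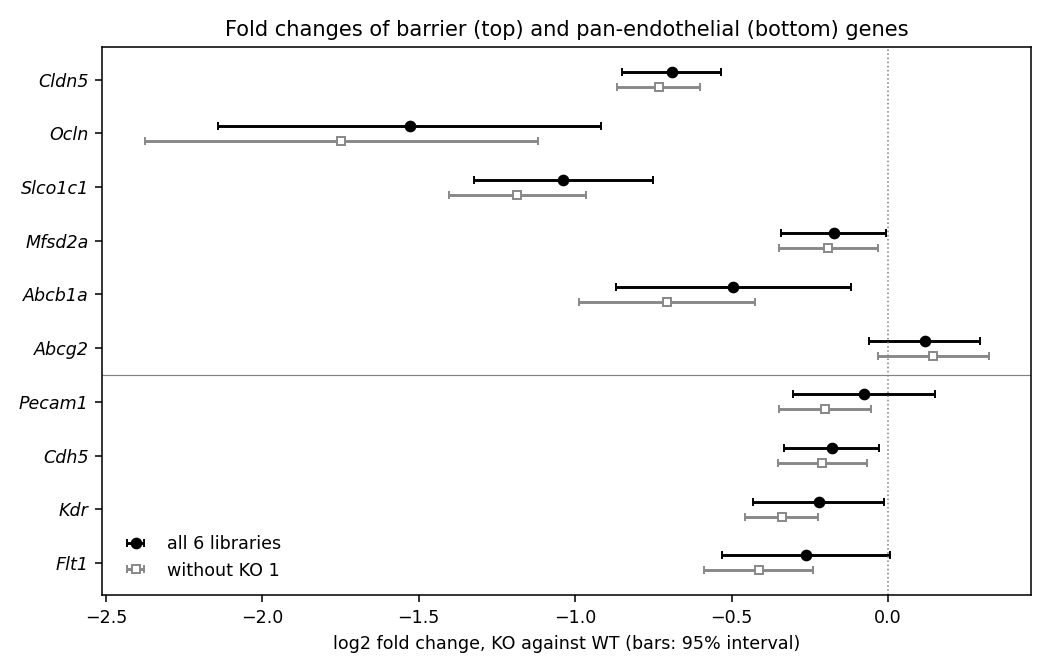
Log2 fold change of KO against WT with its 95% interval for the 6 barrier genes (top) and the 4 genes of endothelium in general (bottom), from all 6 libraries (filled circles) and without KO 1 (open squares). With all 6 libraries Cldn5 (-0.69), Ocln (-1.53) and Slco1c1 (-1.04) lie left of the other genes. Without KO 1 they also do, but Abcb1a (-0.71) is then close to Cldn5 (-0.73), with overlapping intervals.

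Levels of the barrier genes were then set against the 4 genes of endothelium in general within each library, as log2 CPM minus the mean log2 CPM of Pecam1, Cdh5, Kdr and Flt1. The reference level was 4.8, 4.78 and 4.77 in the WT libraries and 4.79, 4.49 and 4.48 in the KO libraries, so KO 1 was level with WT in it. Relative to it, Cldn5 was at 0.75, 0.81 and 0.88 in the WT libraries and 0.20, 0.29 and 0.44 in the KO libraries, a difference of group means of -0.50. Slco1c1 was at -1.12, -1.15 and -1.12 in the WT libraries and -1.92, -1.93 and -2.10 in the KO libraries, a difference of -0.85. These genes were lower in KO, KO 1 included, also beside the general endothelial genes of the same library. Ocln (difference -1.33) and Abcb1a (-0.32) were likewise below WT in every KO library. Mfsd2a (0.02) and Abcg2 (0.31) overlapped between the groups. Among the reference genes, Pecam1 relative to the other 3 was above WT in every KO library (difference 0.14), and Cdh5, Kdr and Flt1 overlapped when treated in this way. Thus 4 of 6 barrier genes had all KO libraries below WT on this scale, as 8.87% of all genes did, while 26.7% of all genes had all KO libraries above. No test was run on these differences, because the genes were chosen with earlier results known.

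**Figure D4:**
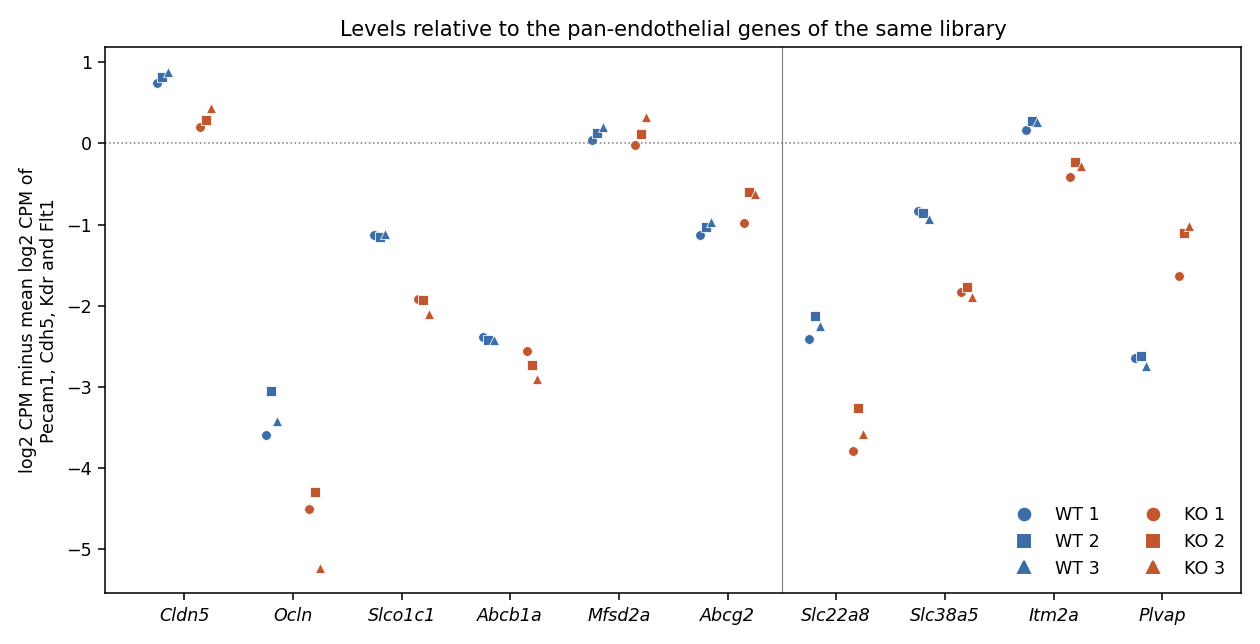
Log2 CPM of single genes minus the mean log2 CPM of Pecam1, Cdh5, Kdr and Flt1 of the same library, for the 6 barrier genes (left of the line) and for 4 other vessel genes (right), with WT in blue and KO in orange. Cldn5 and Slco1c1 are lower in every KO library (differences of -0.50 and -0.85), Mfsd2a overlaps, and Plvap is higher (1.42).

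Other transporters and surface proteins of brain endothelium were compared in the same test. Of 20 such genes 19 were tested, of which 9 fell, 1 rose and 9 did not pass, with a median log2 fold change of -0.31 beside 0.00 over all genes tested, of which 10.5% fell. Slc22a8, an organic anion transporter gene (ENSMUSG00000063796), had 5.16, 6.21 and 5.71 CPM in the WT libraries and 1.96, 2.3 and 1.81 CPM in the KO libraries, a 2.82-fold fall (edgeR adjusted p = 0.000282). Slc38a5, a glutamine transporter gene (ENSMUSG00000031170), had 15.5, 15.1 and 14.3 CPM in the WT libraries and 7.76, 6.53 and 5.94 CPM in the KO libraries, a 2.22-fold fall (edgeR adjusted p = 0.000315). In both genes every KO library was far below every WT library. Itm2a, a membrane protein gene enriched in brain endothelium, fell 1.66-fold from 32.3 ± 1.01 to 19.4 ± 1.24 CPM. Slc40a1, the iron exporter ferroportin, fell 1.72-fold, Slco2b1, an organic anion transporter, 1.52-fold, and Insr, the insulin receptor, 1.4-fold. These 6 genes kept their call with each library left out in turn.

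The calls of other genes of the list did not hold in the same way. Spock2, a proteoglycan (1.8-fold lower), lost its call without WT 2, WT 3 or KO 3. Slc7a1, a carrier of cationic amino acids (1.63-fold lower), lost it without WT 1, WT 2 or KO 2. Tfrc, the transferrin receptor, which red cell precursors also make, rose 1.31-fold (edgeR adjusted p = 0.0127) and lost its call without WT 2 and without WT 3. The count of falling genes ranged from 6 without WT 2 to 11 without KO 1. Over all genes the share called lower was 20.9% without KO 1 and 3.9% to 6.31% without any other single library, and the share called higher was 20.6% and 2.49% to 4.44%. Counts with a library left out, here and below, therefore move with the calls over all genes. Spock2, Insr and Slc7a1 are also made by neural cells, whose part in these values was not tested. Slc2a1, the glucose transporter GLUT1, had 88.9 ± 1.62 CPM in WT and 97.6 ± 4.6 CPM in KO and did not pass (edgeR adjusted p = 0.108). Relative to the general endothelial genes, 9 of the 19 genes had all KO libraries below WT and 2 had them above.

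Plvap moved the other way. It encodes the protein of the diaphragms that close endothelial pores and vesicles, and brain vessels are known to lose it as the barrier forms. Plvap (ENSMUSG00000034845, chromosome 8, 71497765 to 71511752) had 4.4, 4.42 and 4.04 CPM in the WT libraries and 8.91, 10.4 and 11 CPM in the KO libraries. All KO libraries were above all WT libraries, and the rise was 2.36-fold (log2 fold change 1.24, SE 0.11, edgeR adjusted p = 0.000273). Plvap minus Cldn5, in log2 CPM, was -3.39, -3.43 and -3.62 in the WT libraries and -1.83, -1.40 and -1.45 in the KO libraries. Which vessels of the dissected tissue gave the reads of these 2 genes was not tested. In the list of 6 caveolar and fenestral genes to which it belongs, it was the 1 that rose, while 2 fell and 3 did not pass. By comparison, 9.72% of all genes rose and 10.5% fell. Cavin1 (1.37-fold) and Cavin2 (1.91-fold), coat proteins of caveolae, fell at edgeR adjusted p-values of 0.0206 and 0.0392. Each was called in 1 of the 6 tests with a library left out, that without KO 1. In that test 5 genes of the list and 20.9% of all genes were lower.

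**Figure D5:**
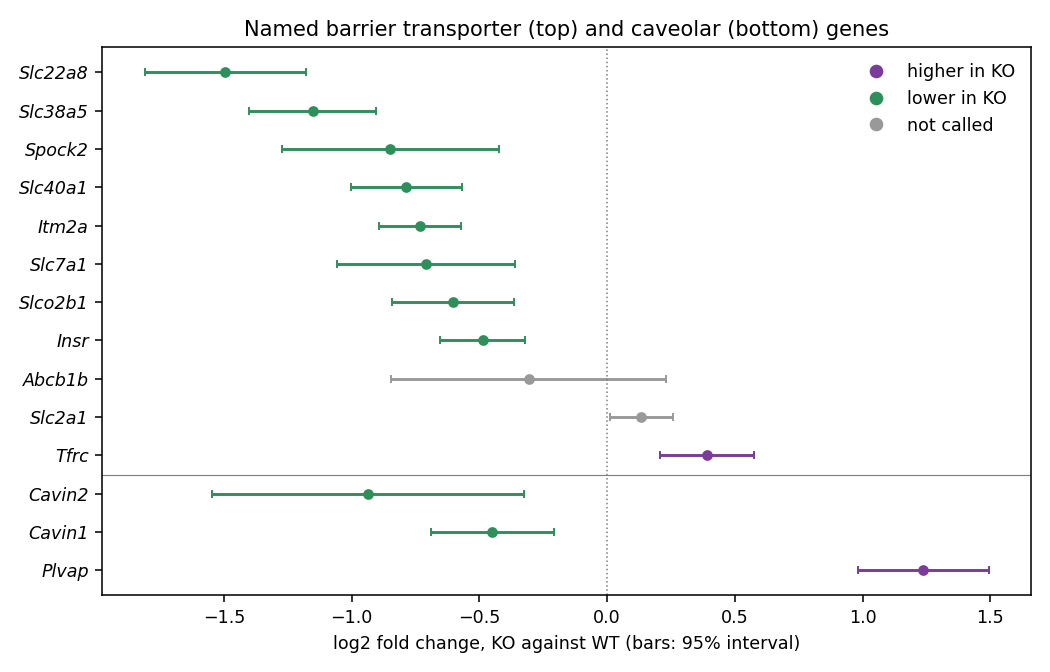
Log2 fold change of KO against WT with its 95% interval for the 11 transporter and surface protein genes (top) and the 3 caveolar or fenestral genes (bottom) named in the text, with genes called higher in purple, lower in green and not called in grey. Slc22a8 (-1.49) and Slc38a5 (-1.15) lie furthest left and Plvap (1.24) furthest right.

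Of the 20 further genes of endothelium in general, 2 fell, 1 rose and 17 did not pass. Their median log2 fold change was -0.18, and of all genes tested 10.5% fell and 9.72% rose. Tie1, a receptor of the angiopoietin pathway, and S1pr1, the receptor of sphingosine-1-phosphate, fell 1.25-fold and 1.23-fold (edgeR adjusted p = 0.0448 and 0.0318), and both were called in 1 of the 6 tests with a library left out, that without KO 1. In that test 7 genes were lower and 3 higher, as were 20.9% and 20.6% of all genes. Tal1, a transcription factor gene of endothelium and of red cell precursors, rose 1.89-fold from 2.03 ± 0.111 to 3.83 ± 0.273 CPM (edgeR adjusted p = 0.00233). Erg, an ETS factor of endothelium, had 5.99 ± 0.563 and 4.57 ± 0.484 CPM and did not pass (edgeR adjusted p = 0.0532). It was called lower with DESeq2 (adjusted p = 0.0463), with limma voom (adjusted p = 0.0496), with a filter at 1 CPM and without KO 1.

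Apart from Cldn5 and Ocln, no junction gene was called lower in all 6 libraries together. Of 14 junction genes 13 were tested. Of these 2 rose, 0 fell and 11 did not pass, beside 9.72% of all genes higher and 10.5% lower. For the 0, edgeR also gave 0 at an unadjusted p under 0.05, and DESeq2 and limma voom gave 0, while 1 gene was lower without KO 1. Jam3 (1.31-fold) and Jam2 (1.16-fold), junctional adhesion molecules also made in neural cells, rose at edgeR adjusted p-values of 0.0144 and 0.045. Without WT 2, WT 3, KO 2 or KO 3 neither was called higher. Jam2 also lost its call without WT 1, with library totals alone as the scale, with limma voom and with the replicate block, none of which ended the call of Jam3. Ctnna1, alpha-catenin (log2 fold change 0.18, edgeR adjusted p = 0.0635), and Lsr, of tricellular junctions (0.23, edgeR adjusted p = 0.129), did not pass. Ctnna1 was called higher without WT 1, without KO 1 and with no filter on low counts.

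Of 16 genes of the VEGF, angiopoietin and sprouting list 2 rose, 0 fell and 14 did not pass. The median log2 fold change was 0.04, and of all genes tested 9.72% rose and 10.5% fell. For the 0 that fell, edgeR gave 1 gene at an unadjusted p under 0.05, and DESeq2 and limma voom gave 0, while 2 were lower without KO 1. Vegfa, the ligand of both KDR and FLT1, had 73.5, 76.4 and 87.2 CPM in the WT libraries and 93.0, 96.1 and 89.9 CPM in the KO libraries. All KO libraries were above WT, and the rise was 1.18-fold (edgeR adjusted p = 0.0431), a call lost without WT 1, WT 2, KO 2 or KO 3, when library totals alone set the scale, and with the replicate number as a block. Esm1, a gene of sprouting tip cells, rose from 0.379 ± 0.167 to 0.831 ± 0.0612 CPM (edgeR adjusted p = 0.0343), a low level whose call was lost without WT 2, WT 3, KO 2 or KO 3. Vegfc (2.1 ± 0.116 and 1.58 ± 0.0303 CPM, edgeR adjusted p = 0.0707) and Nrp2, a coreceptor (140 ± 27 and 190 ± 30 CPM, edgeR adjusted p = 0.0852), did not pass. DESeq2 called Nrp2 higher (adjusted p = 0.011).

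Of 18 Wnt pathway genes known from barrier formation 4 rose, 0 fell and 14 did not pass, with a median log2 fold change of 0.07. The log2 fold change was positive in 9 genes and negative in 9. At an unadjusted p under 0.05 edgeR gave 4 lower genes, and DESeq2 and limma voom each called 1 lower, Apcdd1. All KO libraries of Apcdd1 were below WT, but it did not pass in edgeR (log2 fold change -0.38, edgeR adjusted p = 0.0529). It was also called lower without KO 1 and when library totals alone set the scale. Wnt7a had 72.3, 70.4 and 74.6 CPM in the WT libraries and 72.8, 73.0 and 69.0 CPM in the KO libraries, with overlapping groups and a 95% interval of -0.14 to 0.10 for its log2 fold change. Wnt7b rose 1.38-fold from 41.7 ± 6.0 to 57.4 ± 7.4 CPM (edgeR adjusted p = 0.0274). Reck, which encodes a membrane cofactor of these ligands, rose 1.22-fold, and Lef1, a transcription factor of the pathway, 1.5-fold. The count of 4 rising genes was 0 or 1 with WT 1, WT 2, WT 3, KO 2 or KO 3 left out, and 5 without KO 1, where 6 genes were lower. The share of all genes called higher was 9.72% with all libraries, between 2.49% and 4.44% in those 5 tests and 20.6% without KO 1. The share of all genes called lower was 10.5% with all libraries and 20.9% without KO 1. Wnt7b lost its call without WT 1, WT 2, KO 1 or KO 3.

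Markers of other cells in and around vessels moved as well, and their part in the values of the endothelial genes was not tested. Of 11 mural cell markers 8 fell and 0 rose, with summed levels of 245 to 257 CPM in WT and 199 to 266 CPM in KO. Higd1b fell 3.87-fold, Cspg4 1.68-fold, Vtn 1.52-fold and Pdgfrb, the receptor that recruits pericytes, 1.32-fold. Higd1b, Cspg4 and Vtn kept their calls in all 6 tests with a library left out, and Pdgfrb in 1, that without KO 1. The count of falling mural markers was 3 or 4 with WT 1, WT 2, WT 3, KO 2 or KO 3 left out. In those tests between 3.9% and 6.31% of all genes were called lower (10.5% with all libraries). For the 0 that rose, edgeR gave 1 gene at an unadjusted p under 0.05, and DESeq2 and limma voom gave 0. Of 11 microglia markers 4 fell and 7 did not pass (69.1 to 73.5 CPM summed in WT and 51.1 to 58.1 CPM in KO), among them Fcrls (2.14-fold). In the same tests the count was 2.

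Of 10 red cell markers, genes of cells carried within vessels, 6 rose (9.72% of all genes did) and 4 did not pass. Their summed levels were 375 to 441 CPM in WT and 908 to 1479 CPM in KO. Slc4a1, the anion exchanger of red cells, rose 3.59-fold to 12.3 ± 2.21 CPM. Tal1, Tfrc and Abcg2 are made in red cell precursors too. Choroid plexus also makes Slco1c1, and its part in the values of that gene was not tested. Of 10 choroid plexus markers 6 were tested and 4 were too low to test, among them Ttr at 0.0274 to 0.235 CPM in the 6 libraries. The 10 summed to 20.7 to 23.9 CPM in WT and 38.0 to 44.6 CPM in KO. Otx2 of that list, which is also a forebrain patterning gene, rose 2.62-fold, while Prlr fell 2.09-fold, a call that held without KO 1 and was lost without any other library. Epithelial markers, relevant for Ocln, summed to 1.54 to 2.15 CPM in WT and 2.26 to 2.58 CPM in KO, and 4 of 6 were too low to test. The 2 tested did not pass.

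The median profile of the 10 genes (log2 CPM, each gene centred on its mean) was 0.14, 0.13 and 0.18 in the WT libraries and 0.00, -0.28 and -0.24 in the KO libraries. Among 12971 other protein-coding genes of at least 1 CPM, those closest to it over the 6 libraries were Spata2, Gdap1, Smpd3, Fam129b and Rnf217, at root mean square distances of 0.0232 to 0.0267. Of the 10 genes themselves Kdr (0.0716) and Flt1 (0.0755) were closest to the profile and Ocln (0.689) and Slco1c1 (0.369) farthest. Within a distance of 0.2 lay 5504 of those 12971 genes, so many genes outside the set had like values.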

How the data were processed

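RNA was measured in 6 libraries of pooled MGE. Raw counts of reads per gene, as the authors deposited them, entered every test. The submitters' processing notes name Trimmomatic 0.36, STAR 2.5.2b, Subread 1.5.2 with featureCounts, and DESeq2, and the genome build GRCm38. Neither the gene annotation nor the use of strand in counting is stated in the sources used here, so overlapping genes on opposite strands cannot be told apart. The 6 value columns of the deposited normalized table were not used.

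Symbols, positions and exonic lengths came from GENCODE M21, which held 49056 of 49315 gene IDs. The filter was filterByExpr with a minimum count of 10 and a minimum total of 15, TMM factors were applied, and KO was compared with WT in edgeR 4.0.16 (R 4.3.3), whose quasi-likelihood test was run with robust spread estimates, with Benjamini-Hochberg adjustment over 18079 genes at 0.05. CPM and RPKM used the TMM library sizes, and log2 CPM a prior count of 2. The standard error is the size of the log2 fold change over the square root of F, and intervals are 95%. The procedure was tested on simulated data. DESeq2 1.42.0 and limma 3.58.1 were alternatives.

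Labels gave each library its group and number, and they do not say that numbers pair the pools. The members and lists were chosen with earlier results of these data known. Named genes were the members, Prdm16, called genes of the vessel and barrier lists and up to 4 genes per list by unadjusted p, with Abcb1b, Plvap, Vegfa, Wnt7a and Wnt7b in any case. Apcdd1, Slc2a1, Tek, Nkx2-1 and Ttr fall outside that rule and were added with their values known. Some genes that the rule names are not reported here.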

Additional observations from a re-analysis of the deposited data

How the results depend on the processing

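Over 15 alternatives the 10 genes gave 150 values. Of these 143 kept their call and 7 gained one, and no called gene lost its call or changed direction (Pecam1, not called, ranged from -0.20 to 0.01). Cldn5 had log2 fold changes from -0.73 to -0.64, Slco1c1 from -1.18 to -0.92 and Ocln from -1.75 to -1.21 (adjusted p from 8.31e-14 to 0.00492, from 1.83e-11 to 0.00781 and from 7.57e-07 to 0.0301). Leaving out 1 library gave 3 to 8 lower members, with 8 without KO 1. A threshold of 0.1 gave 5 lower members, by construction. The median difference of the 6 barrier genes relative to the general endothelial genes, -0.41, stayed between -0.52 and -0.40. Without KO 1, chosen after seeing the data, further endothelial genes had 7 lower and 3 higher, the VEGF list 2 lower, junction genes 1 lower, Wnt genes 6 lower and 5 higher, caveolar genes 5 lower and MGE markers 6 lower and 3 higher, beside 20.9% of all genes lower and 20.6% higher. With the replicate number as a block 3 members were lower and 0 higher, and Vegfa, Esm1, Jam2, Reck, Lef1, Tie1, S1pr1, Cavin2, Pdgfrb and Prlr lost their calls (6.74% of all genes lower, 4.77% higher). Correlations between deviations of libraries with the same number were -0.08, -0.12 and 0.03. With 3 libraries per group these values cannot decide whether the numbers pair the pools. Depth limits Ocln most, at 30 to 109 reads per library.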
